A study of Oryza sativa with 16 samples.

Results

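SPL14 and SPL7 are 2 rice transcription factor genes of the SQUAMOSA promoter binding protein-like (SPL) family, and their transcript levels were followed through panicle initiation in the shoot apical meristem. They were chosen by identifier, OS08G0509600 (SPL14, also called IPA1 or WFP, chromosome 8) and OS04G0551500 (SPL7, chromosome 4), and make up 2 of the 34302 rows of the deposited table. Both were present once, under their own identifier. RNA was sequenced from meristems of wild type (WT) plants and of d1 plants, which are mutant for RGA1 (allele d1-1), which encodes the alpha subunit of the heterotrimeric G protein. The plants of both genotypes were 3 months old and had grown for 100 days in a greenhouse. Meristems were sampled at stages labelled 1, 2, 4 and 7 of panicle initiation, and the labels do not define these numbers. Each of the 8 groups (WT and d1 at each stage) had 2 libraries.

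SPL proteins bind DNA through a conserved zinc-binding domain. Many of their transcripts carry a site for the microRNA miR156, which restrains them in young plants and declines with age. In rice, SPL14 is known for reducing tiller number and promoting panicle branching, and alleles that escape miR156 give the ideal plant architecture after which it was named. SPL7 is a relative that is also regulated by miR156 and acts in tillering and panicle branching. No sequence of either gene was at hand, so none is shown.

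The table gives 1 FPKM value (fragments mapped to a gene, scaled by transcript length and by library size) for each gene and group. The authors had combined the 2 libraries, so single groups carry no SD and no n. Tests come from a limma fit over the 8 columns with genotype and stage as terms, on log2(FPKM + 1), for the 19757 genes that reached 1 FPKM in 2 or more columns, and a gene was called at an adjusted p under 0.05. The SE of that fit measures how far a difference varies between stages or genotypes, moderated toward genes of similar level, and not the spread between plants or libraries. Column sums lay between 621238 and 670519 FPKM. RGA1 itself (OS05G0333200) ranged from 27.5 to 30.2 FPKM in WT against 20.9 to 24.1 FPKM in the mutant, lower in d1 at 4 of 4 stages, and was not called (-0.36 ± 0.05 on the log2 scale, SE of the fit, adjusted p = 0.064, limma). The meristem was recognisable by OSH1, a KNOX homeobox gene of indeterminate meristem cells, at 234 to 478 FPKM. The 3 KNOX genes OSH1, OSH15 and OSH71 together had 436 to 838 FPKM in the 8 columns.

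SPL14 was among the most abundant transcripts of the early meristem. In WT it had 1917, 1428, 977 and 177 FPKM at stages 1, 2, 4 and 7. In d1 it had 1635, 1558, 772 and 153 FPKM at the same stages. In both genotypes each stage was lower than the one before, and stage 7 was far below the others. Put in order, the levels were highest in WT at stage 1, then in d1 at stages 1 and 2, WT at stage 2, WT and d1 at stage 4, and WT and d1 at stage 7. The order of neighbours within a stage cannot be set against a spread, because each group has a single value.

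By rank among all 34302 rows, SPL14 stood at 10 in WT at stage 1, at 14 at stage 2, at 33 at stage 4 and at 498 at stage 7. In d1 its ranks were 14, 15, 66 and 629. It was thus within the top 0.0292% of rows in WT at stage 1 and still within the top 1.45% at stage 7. Its share of the summed FPKM of the column was 0.301% in WT at stage 1 and 0.0286% at stage 7, and 0.244% and 0.0238% in d1.

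SPL7 was expressed at a moderate and steadier level. In WT it had 67.8, 68.2, 61.5 and 37.0 FPKM at stages 1, 2, 4 and 7. In d1 it had 80.9, 78.8, 77.2 and 32.3 FPKM. The first 3 stages lay close together within each genotype, with every d1 value above every WT value, and stage 7 was the lowest in both genotypes. Its ranks were 1848, 1821, 2020 and 3699 in WT and 1560, 1554, 1585 and 4407 in d1. SPL7 thus stayed within the top 4.53% to 5.89% of rows at stages 1, 2 and 4, and within the top 10.8% (WT) and 12.8% (d1) at stage 7.

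**Figure D1:**
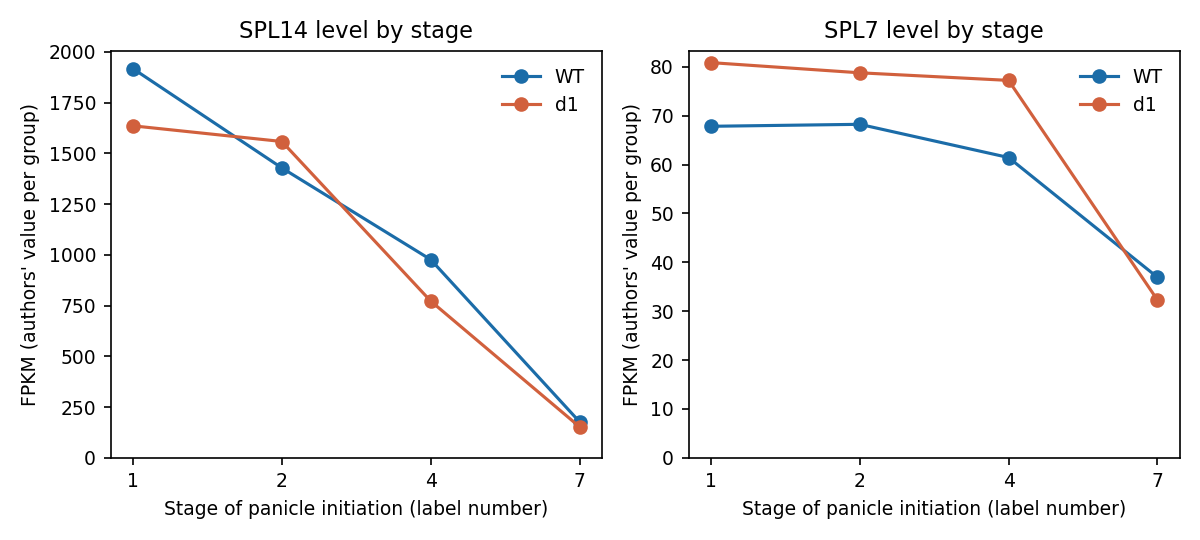
FPKM of SPL14 (left) and SPL7 (right) at stages 1, 2, 4 and 7 in WT and d1, with the stages evenly spaced; each point is the authors' combined value of a group, without error. SPL14 goes from 1917 to 177 FPKM in WT and, in d1, from 1635 to 153 FPKM, while SPL7 stays at 61.5 FPKM or more until stage 4 and is at 37.0 and 32.3 FPKM at stage 7.

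**Figure D2:**
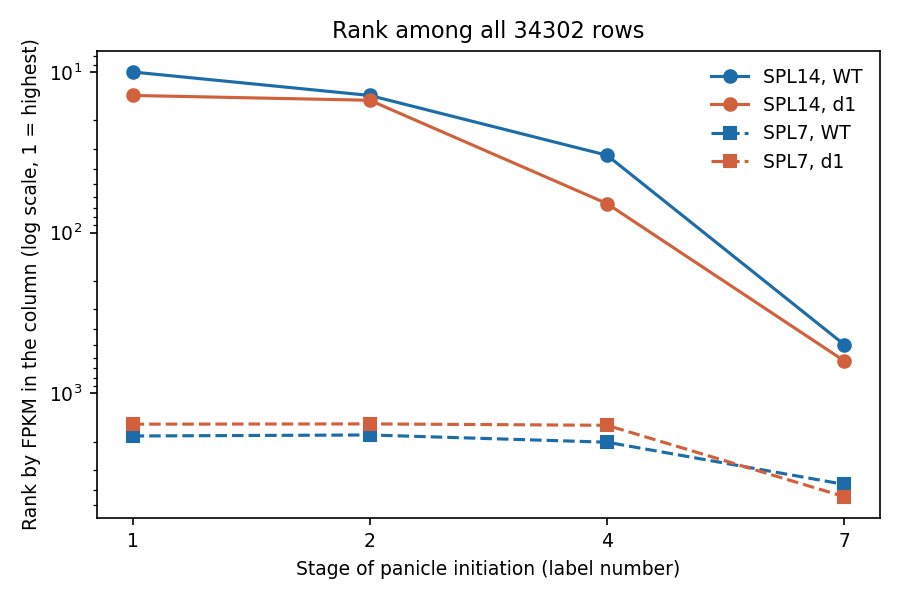
Rank of SPL14 and SPL7 by FPKM among all rows of each column, on a logarithmic axis with the highest level at the top. SPL14 moves from rank 10 to 498 in WT and from 14 to 629 in d1, and SPL7 from 1848 to 3699 and from 1560 to 4407.

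The course over the stages was tested over both genotypes. From stage 1 to stage 7 SPL14 fell by 3.42 on the log2 scale, with an SE of 0.12 (95% interval -3.73 to -3.11, adjusted p = 0.00023, limma). Stage 7 kept 9.25% of the stage 1 level in WT and 9.34% in d1. Over the same span SPL7 fell by 1.08, with an SE of 0.13 (95% interval -1.40 to -0.76, adjusted p = 0.0040, limma), and kept 54.5% of its stage 1 level in WT and 40.0% in d1. Falls past the threshold were common in this comparison, at 14.2% of all tested genes, so that a call alone sets neither gene apart. The size was less common: 14 of the 19757 tested genes, SPL14 included, had a fall at least as large as that of SPL14, and 513 one at least as large as that of SPL7. Of the 10 most abundant rows in WT at stage 1, SPL14 was the only one that was lower by 1 or more on the log2 scale at stage 7, and the median change of these 10 was -0.22. In d1, 3 of the 14 most abundant rows, SPL14 among them, were lower by that much, and SPL14 went furthest down.

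On the log2 scale, the steps between neighbouring stages placed most of the fall late. From stage 1 to stage 2 neither gene was called, with -0.25 ± 0.12 for SPL14 (95% interval -0.55 to 0.06, adjusted p = 0.56, limma) and -0.01 ± 0.13 for SPL7 (95% interval -0.34 to 0.31, adjusted p = 0.98, limma); 0.410% of tested genes were called there in either direction. From stage 2 to stage 4 SPL14 fell by 0.78, with an SE of 0.12 (adjusted p = 0.026, limma), in a step where 2.41% of tested genes fell past the threshold. SPL7 had -0.09 ± 0.13 in that step (95% interval -0.41 to 0.23, adjusted p = 0.74, limma). The SPL14 call at this step did not hold with low genes kept in the fit (adjusted p = 0.086) or with stage 1 or stage 7 left out (adjusted p of 0.064 in each case, limma).

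From stage 4 to stage 7 both genes fell, where 1.97% of tested genes did. SPL14 fell by 2.39, with an SE of 0.12 (adjusted p = 0.0027, limma), and 5 of the 19757 tested genes, SPL14 included, fell at least as far. SPL7 fell by 0.98, with an SE of 0.13 (adjusted p = 0.025, limma), and 197 tested genes fell at least as far. The SPL7 call was lost with low genes kept in (adjusted p = 0.058) and with stage 1 left out (adjusted p = 0.060, limma). On the log2 scale this last step held 71.6% of the whole SPL14 fall in WT and 68.3% in d1, and 83.6% and 94.9% of the SPL7 fall. In FPKM, the SPL14 fall was spread more evenly in WT, with 28.1%, 26.0% and 45.9% of the total in the 3 steps. In d1 the first step held 5.21% and the last 41.8%, so that most of the fall lay between stages 2 and 4.

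A lower level in a whole meristem can come from fewer cells that hold the transcript or from less transcript per cell, and the combined values cannot tell these apart. Other meristem transcripts moved beside the fall. OSH1 stood at 354, 468, 476 and 234 FPKM in WT, with d1 values of 354, 441, 478 and 251 FPKM, so that its highest value came at stage 4. The KNOX genes did not move as one. OSH71 stood at 73.1, 69.2, 45.3 and 39.2 FPKM in WT, with d1 values of 79.0, 87.5, 58.6 and 42.2 FPKM. From stage 2 to stage 4 OSH71 fell by 0.59, with an SE of 0.09 (adjusted p = 0.024, limma), while OSH15, another KNOX gene, rose by 0.51 ± 0.09 (adjusted p = 0.033, limma). From stage 1 to stage 7 OSH71 fell by 0.89, with an SE of 0.09 (adjusted p = 0.0024, limma). From stage 4 to stage 7 OSH1 fell by 0.97, with an SE of 0.07 (adjusted p = 0.0059, limma), and OSH15 fell by 0.84 with an SE of 0.09 (adjusted p = 0.013, limma). In that step OSH71 had -0.33 ± 0.09 (adjusted p = 0.12, limma). Within a column, SPL14 had 5.42, 3.05, 2.05 and 0.757 times the FPKM of OSH1 in WT, and 4.62, 3.53, 1.62 and 0.608 times in d1. The SPL14 to OSH1 ratio therefore declined at every step in both genotypes. The SPL14 to OSH71 ratio was 26.2, 20.6, 21.6 and 4.52 in WT, with no decline from stage 2 to 4, and 20.7, 17.8, 13.2 and 3.62 in the mutant. The SPL7 to OSH1 ratio lay between 0.129 and 0.228 in all 8 columns, and from stage 4 to 7 went from 0.129 to 0.158 in WT and from 0.162 to 0.129 in d1.

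FPKM is a measure per transcript length, so the 2 genes can be compared within a column. SPL14 had 28.3, 20.9, 15.9 and 4.80 times the FPKM of SPL7 in WT, and 20.2, 19.8, 9.998 and 4.73 times in d1. SPL14 was the more abundant gene in all 8 columns, and by stage 7 the gap had narrowed to almost the same ratio in both genotypes. The ratio was lower in d1 at 4 of 4 stages, by -0.48, -0.08, -0.67 and -0.02 on the log2 scale, a mean of -0.31 ± 0.31 (SD over 4 stages). An exact two-sided permutation test that turned the sign of whole stage pairs gave p = 0.125, the smallest value 4 pairs allow, so this design could not reach 0.05.

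**Figure D3:**
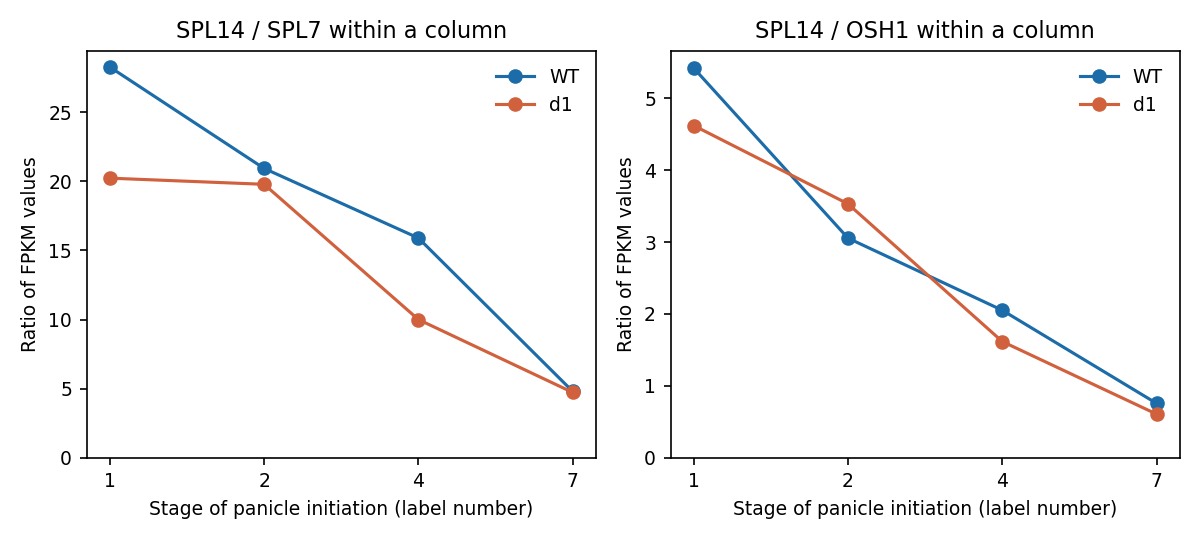
Ratio of FPKM values within a column, SPL14 to SPL7 on the left and SPL14 to OSH1 on the right, by stage in WT and d1, with the stages evenly spaced. The first ratio goes from 28.3 to 4.80 in WT and from 20.2 to 4.73 in d1, and the second from 5.42 to 0.757 and from 4.62 to 0.608.

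The comparison of d1 with WT asked whether loss of the G protein alpha subunit was accompanied by another SPL level. Neither gene was called over the 4 stages. SPL14 differed by -0.16 ± 0.09 (d1 minus WT, log2, SE of the fit; 95% interval -0.38 to 0.05, adjusted p = 0.31, limma). SPL7 differed by 0.15 ± 0.09 (95% interval -0.08 to 0.38, adjusted p = 0.38, limma). Of all tested genes 0.243% were called. The intervals leave room for differences of either gene up to 0.38 in size. Under quantile normalization the SPL14 difference was -0.27, and it was not called (adjusted p = 0.11, limma). With 1 stage left out it ran from -0.26 (without stage 2) to -0.11 (without stage 4), and that of SPL7 from 0.09 (without stage 4) to 0.26 (without stage 7), with 0 calls in these 8 refits (limma).

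At single stages the d1 to WT ratio of SPL14 was 0.853, 1.09, 0.791 and 0.861 at stages 1, 2, 4 and 7. SPL14 was thus lower in d1 at stages 1, 4 and 7 and higher at stage 2. The ratio of SPL7 was 1.19, 1.15, 1.26 and 0.874, higher in d1 at stages 1, 2 and 4 and lower at stage 7. These differences were set beside those of abundant genes, the 4770 tested genes whose mean reached 30 FPKM. The SPL14 difference at stage 4, -0.34 on the log2 scale, was matched or exceeded in either direction by 12.4% of those genes, and at stages 1, 2 and 7 by 19.3%, 51.9% and 30.4%. In its own direction the SPL14 difference was matched by 4.51%, 28.8%, 3.54% and 9.85% of them at stages 1, 2, 4 and 7. For SPL7 the shares were 16.6%, 30.2%, 13.6% and 36.6% in either direction, and 12.8%, 17.7%, 9.73% and 11.6% in its own. The median difference of the 4770 genes was itself positive, at 0.039, 0.012, 0.055 and 0.066 at stages 1, 2, 4 and 7. In shares taken in a gene's own direction, a negative difference therefore looks rarer than a positive difference of the same size.

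**Figure D4:**
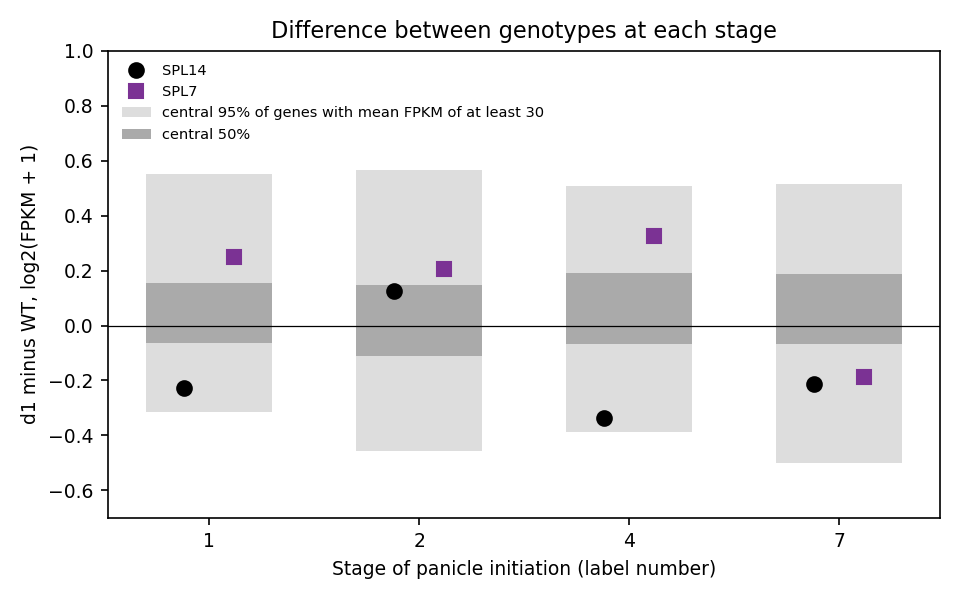
Difference between d1 and WT in log2(FPKM + 1) at each stage for SPL14 (circles) and SPL7 (squares), over the central 95% and 50% of the 4770 genes with a mean of at least 30 FPKM (light and dark bars). SPL14 lies at -0.23, 0.13, -0.34 and -0.21 and SPL7 at 0.25, 0.20, 0.33 and -0.19, all within the light bars.

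The steps also differed in size between the genotypes, although a test of this difference could not be made from 1 value per group. SPL14 changed by -0.42 from stage 1 to 2 in WT and by -0.07 in d1, and by -0.55 from stage 2 to 4 in WT and by -1.01 in d1. Over the whole span the changes were -3.43 in WT and -3.41 in d1. A gap between genotypes as wide as that of the first step was seen in 7.04% of the 4770 abundant genes, and as wide as that of the second in 6.14%. For SPL7 the last step was -0.72 in WT and -1.23 in d1, a gap that 2.89% of the abundant genes matched or exceeded. The remaining gaps were ordinary in size. That of the last SPL14 step was matched or exceeded by 41.5% of the abundant genes, and those of the first and second SPL7 steps by 75.3% and 56.5%. The SPL14 gaps of the first and second steps share the stage 2 values, so they are not separate observations.

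Identifiers listed as leaf markers varied between the same columns. Of 7 leaf and photosynthesis identifiers, 3 were in the table, only CAB1R, a chlorophyll a/b-binding protein gene, could be matched to its name, and their summed level was 5.43, 19.3, 2.35 and 13.3 FPKM in WT at stages 1, 2, 4 and 7, against 28.7, 11.3, 8.12 and 5.76 FPKM in the mutant. CAB1R alone had 2.79, 7.97, 0.990 and 7.13 FPKM in WT against 11.9, 1.90, 3.26 and 1.69 FPKM in the mutant, and the unmatched OS01G0501800 held 16.5 FPKM of the sum in d1 at stage 1. The lowest of the 3 never exceeded 0.23 FPKM. The sum, like CAB1R, was higher in d1 at stages 1 and 4 and lower at stages 2 and 7. The SPL7 difference had the sign of the leaf sum at stages 1, 4 and 7, and that of SPL14 had the opposite sign at stages 1, 2 and 4. The part of this in the genotype differences was not tested.

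Other SPL genes were then read from a list of 19 family identifiers. Of these, 8 were found in the data, all 8 passed the filter, and 6 could be matched to their SPL name, SPL14 and SPL7 included. The other 4 were SPL2, SPL11, SPL12 and SPL16. SPL16, known as GW8 for its role in grain width, had low values, 5.03, 5.16, 5.54 and 7.21 FPKM in WT against 4.51, 4.70, 5.57 and 5.92 FPKM in the mutant. SPL12 was the most abundant of the 4, with 97.52, 108, 83.8 and 65.7 FPKM in WT against 93.1, 92.3, 78.5 and 73.5 FPKM in the mutant, which is above SPL7 in every column. SPL14 was above all 4 in every column.

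From stage 1 to stage 7, 4 of the 6 matched SPL genes fell and 2 rose, beside 14.2% of all tested genes that fell and 13.9% that rose. The median change of the 6 was -0.51 against -0.01 over all tested genes, and without SPL14 and SPL7 the median of the other 4 was -0.03. SPL2 fell by 0.58 with an SE of 0.08 (adjusted p = 0.0056, limma), and SPL12 fell by 0.45 with an SE of 0.10 (adjusted p = 0.023, limma). SPL11 rose by 0.55 ± 0.12 (adjusted p = 0.024, limma) and SPL16 by 0.39 ± 0.10 (adjusted p = 0.035, limma). Changes of the matched genes ran from -3.42 for SPL14 to 0.55 for SPL11. Over all 8 tested identifiers of the list, 5 fell, 2 rose and 1 was not called, and OS09G0491532, without a matched name, fell by 3.99 with an SE of 0.10 (adjusted p = 0.00015, limma), a larger value than that of SPL14. Between d1 and WT 0 of the 6 were called (limma) and 0 had an unadjusted p under 0.05, beside 0.243% called and 4674 of 19757 at that unadjusted p over all tested genes. The differences of the 6 ran from -0.16 to 0.15.

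**Figure D5:**
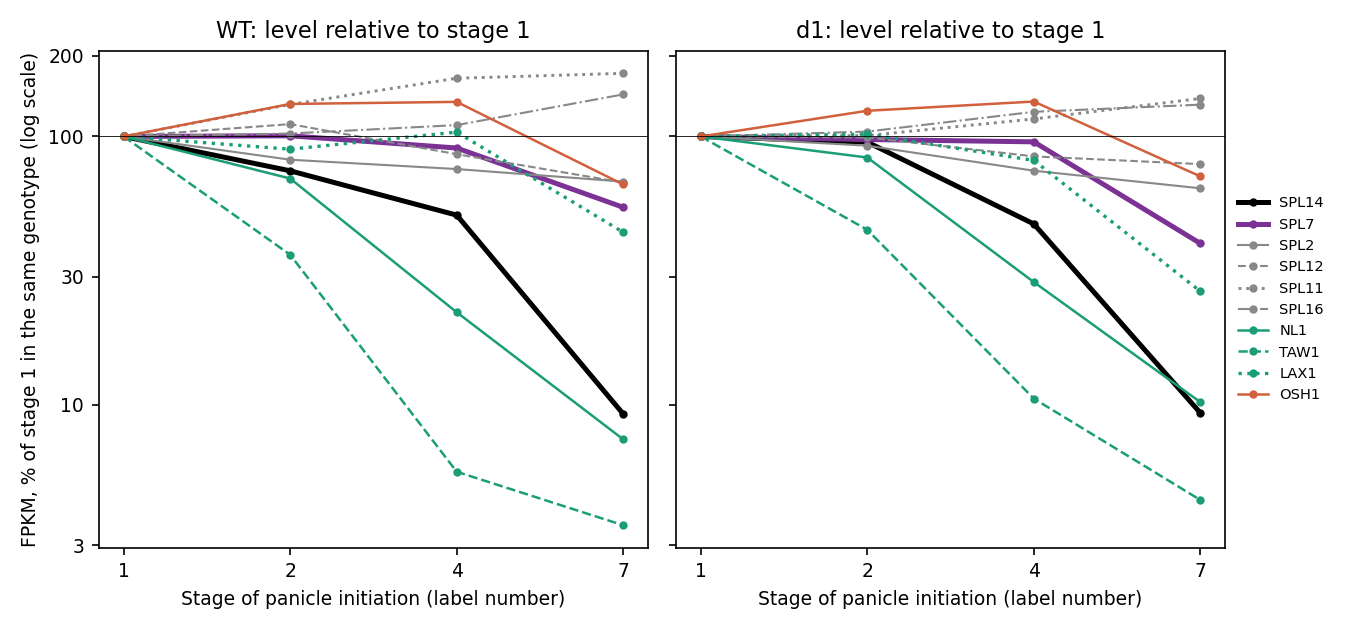
FPKM as a percentage of the stage 1 value of the same genotype (logarithmic axis) for SPL14, SPL7, the 4 other matched SPL genes, the branching genes NL1, TAW1 and LAX1, and OSH1, in WT (left) and d1 (right), with the stages evenly spaced. At stage 7 SPL14 is at 9.25% and 9.34% of its stage 1 level, SPL7 at 54.5% and 40.0%, and SPL11 and SPL16 are above 100%. The matched branch and spikelet genes that rose are not drawn. These are MADS14, at 194% (WT) and 172% (d1) at stage 7, and FZP, which was listed at 0 at stage 1.

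Genes tied to SPL function in branching were read from a list of 11 identifiers, of which 7 were tested and 2, NL1 and TAW1, could be matched to their name. NL1 encodes a GATA zinc finger protein that restrains bract growth in the panicle. Its WT values were 343, 239, 75.9 and 25.5 FPKM, its d1 values 378, 315, 108 and 38.7 FPKM, and it fell by 3.47 from stage 1 to 7 with an SE of 0.11 (adjusted p = 0.00020, limma). TAW1 encodes an ALOG protein that delays spikelet specification. Its WT values were 94.8, 34.4, 5.35 and 3.38 FPKM, its d1 values 98.2, 44.1, 10.4 and 4.35 FPKM, and it fell by 4.33 with an SE of 0.18 (adjusted p = 0.00028, limma). At stage 4, TAW1 was at 5.64% of its stage 1 level in WT (10.6% in d1) and NL1 at 22.1% (28.7%), with SPL14 at 50.9% (47.2%). Of the 7 tested identifiers, 3 fell, 1 rose and 3 were not called, with a median of -0.37, beside the 14.2% that fell, 13.9% that rose and the median of -0.01 over all tested genes.

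A second list of 12 identifiers for branch and spikelet meristems held 7 tested members, of which 4 fell and 3 rose from stage 1 to 7, with a median of -1.53, against the same 14.2%, 13.9% and -0.01. LAX1, a bHLH factor of axillary meristems, had WT values of 127, 114, 132 and 55.7 FPKM and d1 values of 190, 194, 155 and 50.5 FPKM, and fell by 1.53 with an SE of 0.21 (adjusted p = 0.0062, limma). FZP, an ERF factor of spikelet meristem identity, was listed at 0 at stage 1 and at 3.13 (WT) and 4.04 FPKM (d1) at stage 4. MADS14, an APETALA1-like MADS-box gene, rose by 0.83 ± 0.11 (adjusted p = 0.0058, limma). In d1 against WT, 0 of the 7 members of either list were called (limma), beside 0.243% of all tested genes. That share is too small for 0 of 7 to set either list apart. An unadjusted p under 0.05 was seen for 4 in the first and 0 in the second, beside 4674 of all 19757 tested genes. NL1 (0.41 ± 0.08, adjusted p = 0.080, limma) and TAW1 (0.38 ± 0.13, adjusted p = 0.16, limma) were among the 4, and both had the higher value in d1 at 4 of 4 stages. The other members of the 4 had no matched name. Their differences were 0.24 ± 0.07 (adjusted p = 0.13, limma) and -0.19 ± 0.08 (adjusted p = 0.21, limma), so the 4 did not share a direction. A small p in this fit already favours a shared sign over the stages, so the sign is no separate support.

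Genes whose pattern was most like that of each SPL gene were found by Pearson correlation of log2(FPKM + 1) over the 8 columns, among 2051 genes whose mean reached 5 FPKM and whose log2 range reached 1. The columns share 2 genotypes and 4 stages, so r describes the pattern only. The 2 closest to SPL14 were OS04G0600651 (r = 0.993) and OS11G0152700 (r = 0.990), which no table used here names. OS11G0152700 went from 29.5 to 2.82 FPKM in WT and, in d1, from 27.8 to 2.86 FPKM. At place 5 stood OS09G0491532 (r = 0.987), one of the 2 identifiers on the SPL family list without a matched name, with WT values of 476, 419, 165 and 27.3 FPKM and d1 values of 470, 459, 217 and 30.6 FPKM. The 2 closest to SPL7 were OS03G0685300 (r = 0.985) and OS09G0466400 (r = 0.978), also without a name here.

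LAX1 was at place 3 in likeness to SPL7, with r = 0.976. Like SPL7, it had its higher value in d1 at stages 1, 2 and 4 and in WT at stage 7, and its genotype difference was not called (0.36 ± 0.15, adjusted p = 0.23, limma). LAX1 was picked for its likeness to SPL7 over these same columns, so the shared signs are no separate support. OS03G0685300, the closest to SPL7, was higher in d1 at stage 7 (9.11 against 8.57 FPKM in WT). SPL14 and SPL7 correlated with each other with r = 0.932, and 89 of the 2051 genes were closer to SPL14 than SPL7 was. By rank correlation 10 genes tied with SPL14 at a rho of 1, so that no 5 closest could be set for it. OS03G0685300, the closest to SPL7 by Pearson correlation, had a rho of 0.952 with it, and 7 genes reached a rho of 0.95. LAX1 was not among the 5 genes listed as closest to SPL7 by rank correlation.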

How the data were processed

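Tools named in the submitters' processing notes are FastQC, Trimmomatic, TopHat2, Cufflinks and Cuffdiff, with build IRGSP-1.0 and neither versions nor roles. The deposited values are FPKM, a unit inferred from these tools and the values, with the 2 libraries of each of 8 groups (16 libraries) combined into 1 column. How the columns were scaled against each other is not stated in these notes. FPKM hold no counts, so depth is unknown, and counting intervals or floors cannot be had. Among low values, the commonest ratio of WT stage 1 to another column was 0.993 to 1.06, but it held only 2.92% to 4.14% of the genes compared, so relative depth was not taken from it.

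Rows that reached 1 FPKM in 2 or more columns were tested (19757 of 34302), and log2(FPKM + 1) was fitted with limma 3.58.1 (R 4.3.3, eBayes with trend, Benjamini-Hochberg over all tested genes), with 3 residual and 2.54 prior degrees of freedom. A fold change on this scale understates the change of low genes. The fit was tested on simulated data, with planted genotype differences larger than those of SPL14 and SPL7. That test does not bear on differences as small as theirs. Single stages were described without a test. Alternatives were a pseudocount of 0.1, no filter, a mean of at least 5 FPKM, median scaling, quantile normalization, array weights and each stage left out.

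Identifiers of list genes came from general knowledge and were named only where the NCBI gene table (assembly ASM3414082v1, another build, which holds 0 of the list identifiers and 1 of all in the table) had the name on the same chromosome in identifier order; aliases for 2 names were added after the table was seen. The members, lists and tests were chosen with earlier results of these data known. Named were both members, the 5 genes most like each (2 printed where unnamed, plus OS09G0491532 for its place on the family list), matched list members and RGA1. How the authors' tools divided reads between near-identical genes cannot be seen from the table.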

Additional observations from a re-analysis of the deposited data

Results flagged for a closer look

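The d1 minus WT difference of SPL14 changed sign between stages. At stage 2 it was 0.13 on the log2 scale, with 1558 FPKM in d1 and 1428 FPKM in WT, and at the other 3 stages it was negative. The difference between stages was not tested, because each group has 1 value.

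The d1 minus WT difference of SPL7 was negative at stage 7 (-0.19), with 32.3 FPKM in d1 and 37.0 FPKM in WT, and positive at stages 1, 2 and 4. This difference between stages was not tested either.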

How the results depend on the processing

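No paired analysis was possible because the 2 libraries of a group had been combined into 1 column that carries no replicate number. For SPL14 and SPL7, 65 of 68 refits of the 5 comparisons kept the direction and the side of the threshold, not counting stage comparisons with another stage left out, where the balanced fit fixes the value in advance and only the error can change. Among the 68, refits with another filter on low values also leave a gene's own value fixed. The same holds for array weights in the stage comparisons, where the weights were equal within a stage. In these refits only the side of the threshold could change. Both falls from stage 1 to 7 were called in all 8 refits each, at adjusted p up to 0.0021 for SPL14 and 0.013 for SPL7 (limma), as was the SPL14 fall from stage 4 to 7 (up to 0.016). Without a filter on low values the SPL14 step from stage 2 to 4 (-0.78) and the SPL7 step from stage 4 to 7 (-0.98) were no longer called, and the cause was not tested; with another stage left out (values fixed at -0.78 and -0.98) calls were lost for SPL14 without stage 1 or 7 and for SPL7 without stage 1, where fewer columns remain. The SPL7 step from stage 1 to 2 reversed to 0.0097 under quantile normalization (-0.01 before), inside its SE. With a stage left out, the genotype difference ran from -0.26 to -0.11 for SPL14 and from 0.09 to 0.26 for SPL7.

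Counts over all genes moved more. The genotype count of 48 was 7 without a filter, 315 at a mean of at least 5 FPKM, 21 after median scaling, 401 with array weights and 4 to 5 with a stage left out; for these the cause was not tested. Without a filter the steps from stage 1 to 2, 2 to 4 and 4 to 7 gave 0, 652 and 397 genes (limma) in place of 81, 1206 and 766, with 2798 genes at an unadjusted p under 0.05 in the first. With a stage left out they gave 0 to 20, 721 to 999 and 317 to 822; the 0 (without stage 4) had 1684 genes at an unadjusted p under 0.05. After median scaling the stage 1 to 7 split was 2370 higher and 3286 lower, in place of 2739 and 2800. The median ratio of SPL14 to SPL7 over the 8 columns was 17.8 and became 17.6 with 1 added to each FPKM, and their Pearson r of 0.932 became a Spearman rho of 0.667. Ranks taken among genes with at least 1 FPKM are the same by construction. What the values cannot show is any spread between plants or libraries.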
